A study of Trichoderma reesei with 8 samples.

Results

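The transfer of *T. reesei* mycelium from glucose to wheat straw was examined across the whole genome, by comparing 3 libraries of 48 h old glucose cultures (48 h glucose) with 3 libraries from cultures kept for 24 h on straw (24 h straw). These are 6 of the 8 libraries of the series, and the comparison takes in all 9126 gene models of the annotation. *T. reesei* QM6a, the strain in every culture, is the wild-type ancestor of the industrial cellulase producers. Mycelium was grown from conidia with glucose as sole carbon source, and for 24 h straw it was filtered off, washed and moved into fresh medium in which ground wheat straw was the only carbon source. The straw condition therefore differs from 48 h glucose in carbon source, in fresh medium, in washing and in culture age, and these cannot be told apart here. Each library was made from rRNA-depleted RNA of a shaken flask culture, and only the sense-strand counts are used here.

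Filamentous fungi that live on plant cell walls take up glucose in preference to other sugars, and while glucose is present many genes for polymer breakdown and for alternative carbon sources are repressed. On an insoluble polymer the cell depends on secreted enzymes, on transporters for the sugars they release and on regulators that sense them. Growth on glucose in turn draws on the translation apparatus, on protein turnover and on mitochondrial respiration. Gene groups for each of these processes were set beside the genome-wide change.

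Of the 9126 gene models, 8753 had at least 1 read in the 6 libraries and 7211 passed the filter on low counts and were tested. Library totals of sense counts ran from 1337099 to 1704969 reads at 48 h glucose and from 2473359 to 2997433 on straw, so low levels were measured more precisely on straw. Levels are given as normalised RPKM, that is sense reads divided by transcript length and by library size, where the library size is the counted reads scaled by TMM factors from edgeR. The deposited RPKM are divided by a larger library total, of which counted reads made up 10.1 to 12.2 reads per 100 at 48 h glucose and 18.2 to 20.2 on straw. Scaled by those totals, the genome-wide median log2 fold change moved up by 0.80, from 0.05 to 0.85, and the counts of higher and lower genes became 4294 and 753. Both scalings are relative, and neither measures an absolute amount of RNA. For a fall smaller than this shift or close to it on the log2 scale, the direction or size depends on which scaling is used. Less RNA per cell and fewer cells that express a gene cannot be told apart in these bulk samples. Across the genes tested, straw libraries 1 and 3 were the closest pair, with a median absolute log2 ratio of 0.12, against 0.19 and 0.20 between either of them and library 2 and 0.26 to 0.30 among the glucose libraries. Over 5707 genes with enough reads, the mean chi-square of straw libraries 1 and 3 was 1.34 per gene, where counting noise alone gives about 1. Should both stem from 1 culture, the p values and SDs for straw are too small. With these 2 libraries summed as 1 sample, an alternative added after seeing the data, 1980 genes were higher and 1818 lower.

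On the main scaling, 4237 genes, or 58.8% of those tested, differed between the 2 conditions when the edgeR quasi-likelihood p, adjusted by Benjamini-Hochberg (BH), had to lie below 0.05. Of these, 2203 (30.6%) were higher and 2034 (28.2%) lower on straw. The libraries of the 2 conditions did not overlap for 67.5% of the genes tested. This held for 2168 of the genes called higher, for 1984 of those called lower and for 715 of the 2974 genes that were not called.

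The 2 directions were similar in number and unlike in size. A change of at least 2-fold was found for 1495 higher and 1180 lower genes, of at least 4-fold for 785 (10.9%) and 411 (5.7%), and of at least 8-fold for 502 and 144. Over 32-fold there were 244 higher genes and 16 lower ones. The genes called higher had a median log2 fold change of 1.42, an upper quartile of 2.74 and a maximum of 11.23, while those called lower had a median of -1.13, a lower quartile of -1.80 and a largest fall of -6.47. The long upper tail includes genes with no read in glucose, whose fitted fold change is not a bound.

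**Figure D1:**
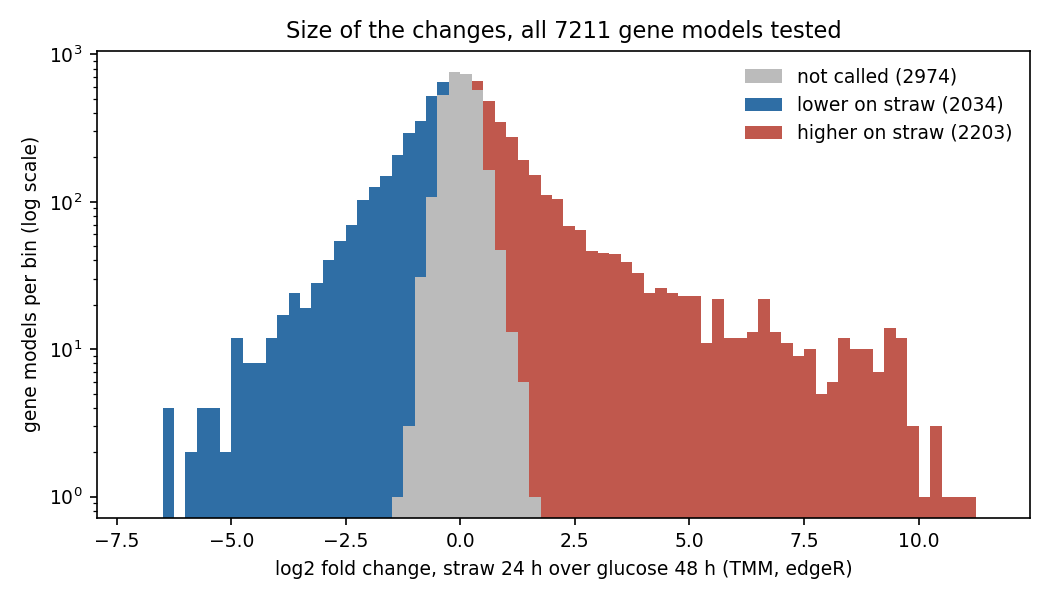
Number of gene models (log scale) in each bin of log2 fold change of 24 h straw over 48 h glucose, for all 7211 models tested. Blue, red and grey are the 2034 lower, 2203 higher and 2974 uncalled models, and the red tail reaches 11.23 where the blue one ends at -6.47.

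Genes that fell were abundant in glucose and genes that rose were scarce there. The median level in glucose was 101 normalised RPKM for genes called lower, 11.4 for genes called higher and 31.4 for genes not called. On straw the same medians were 43.4, 37.0 and 31.2. Of the 411 genes lowered at least 4-fold, 252 had a mean of 100 or more normalised RPKM in glucose and 55 still had it on straw. Of the 785 genes raised at least 4-fold, only 3 reached that level in glucose and 226 reached it on straw. These groups were chosen on the same libraries, so the direction of these shifts is fixed by the choice. The median transcript length was 1341 bp for lower, 1545 bp for higher and 1364 bp for uncalled genes.

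Genes called lower held 65.1%, 65.4% and 66.1% of the summed RPKM of the 3 glucose libraries and 28.0%, 26.4% and 28.0% of that of the 3 straw libraries. Genes called higher went from 7.06% ± 0.0490 (SD, n = 3) to 42.5% ± 1.17 (SD, n = 3). Much of that straw share lay in few genes: the 65 genes that the study tabulates as strongly straw-induced were all among them, and the other 720 genes raised at least 4-fold went from 0.690% ± 0.0228 (SD, n = 3) in glucose to 8.93% ± 0.288 (SD, n = 3).

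The most abundant model in glucose almost disappeared from the top on straw. It encodes a glutathione S-transferase with 2 predicted membrane spans (transcript ID 111082, scaffold 24, at 256359 to 257427 by RefSeq on assembly v2.0), a class of enzyme that joins glutathione to reactive compounds. Its level was 12464, 17567 and 15150 normalised RPKM in the 3 glucose libraries and 339, 289 and 328 on straw. No straw library came near any glucose library, and the log2 fold change was -5.56 (standard error, SE, 0.26, edgeR adjusted p = 2.6e-12).

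Only 1 model was among the 10 most abundant of both conditions, and 18 were shared among the top 50 and 49 among the top 100. The shared top-10 model, estExt_fgenesh5_pg.C_270120 (scaffold 27), has no annotation in the sources used here. It had 8252, 8370 and 9048 normalised RPKM in glucose and 5307, 5605 and 5235 on straw, with a log2 fold change of -0.67 that did not pass the test (adjusted p = 0.052) and became 0.14 when the authors' library totals were used. Among the other top models in glucose, 7 of 8 have no annotation in the sources used here. The exception is a gene related to CipC1 (121350, scaffold 7), which fell from 7135, 6045 and 4432 to 1862, 1365 and 1948 normalised RPKM, a log2 fold change of -1.77 (SE 0.22). All 8 were called lower, and the falls beyond 8-fold were those of estExt_fgenesh5_pg.C_210021 (scaffold 21), with a log2 fold change of -4.58, fgenesh5_pg.C_scaffold_23000017 (scaffold 23), with -4.25, and estExt_Genewise1.C_290217 (scaffold 29), with -3.08. Among these 8, estExt_fgenesh5_pg.C_190027 and estExt_GeneWisePlus.C_120391 had log2 fold changes of -0.84 and -1.24. With the authors' library totals these became -0.03 and -0.42. On the main scaling, 42 of the 50 most abundant models in glucose were lower on straw and 0 higher, and of the top 100, 81 were lower and 0 higher. The median transcript length of the top 50 models was 648 bp in glucose and 970 bp on straw. For the top 100 the medians were closer, at 798 bp and 841.5 bp. Abundance in glucose and the fall from glucose rest on the same 3 libraries.

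On straw the top 10 models were mostly genes for secreted hydrolases, led by *xyn2* (an endoxylanase) and *cbh1* (a cellobiohydrolase), together with *xyn4*, *bxl1*, *glr1* and *cbh2*, a permease of the major facilitator superfamily and the alcohol oxidase gene AOX1. Of the 50 most abundant models on straw, 25 are genes that the study tabulates, 29 were called higher and 10 lower. Of the top 100 on straw, 32 are tabulated, 45 were called higher and 30 lower. The median log2 fold change was 5.74 for the top 50 and -0.11 for the top 100. Abundance on straw and the rise on straw rest on the same straw libraries. Of the top 10, 8 are tabulated, and the shared model above is not. The other model outside the tables encodes a protein of unknown function (55272, scaffold 2) that had 69.0, 77.4 and 94.4 normalised RPKM in glucose and 3577, 4167 and 3610 on straw, a log2 fold change of 5.56 (SE 0.24, edgeR adjusted p = 8.6e-13).

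The 10 most abundant models of a library held 8.69%, 9.14% and 8.70% of the summed RPKM in glucose and 11.2%, 12.4% and 11.3% on straw. All straw libraries lay above all glucose libraries (p = 0.1 in a two-sided exact permutation test, which cannot go lower with 3 libraries against 3). For the top 50 the shares were 22.1% ± 0.583 (SD, n = 3) and 23.9% ± 0.996 (SD, n = 3), with the same exact permutation p of 0.1, and for the top 100 the libraries overlapped, at 31.0% ± 0.793 and 31.9% ± 0.806 (SD, n = 3 each; exact permutation p = 0.3). The number of models that together held 50% of the summed RPKM was 330, 344 and 355 in glucose and 417, 385 and 412 on straw (exact permutation p = 0.1). Taken over counts, which favour long transcripts, the top 10 held 6.18% ± 0.471 in glucose and 13.7% ± 1.07 on straw (SD, n = 3 each), and the number of models holding 50% overlapped between the conditions, with 473 to 482 in glucose and 454 to 504 on straw.

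**Figure D2:**
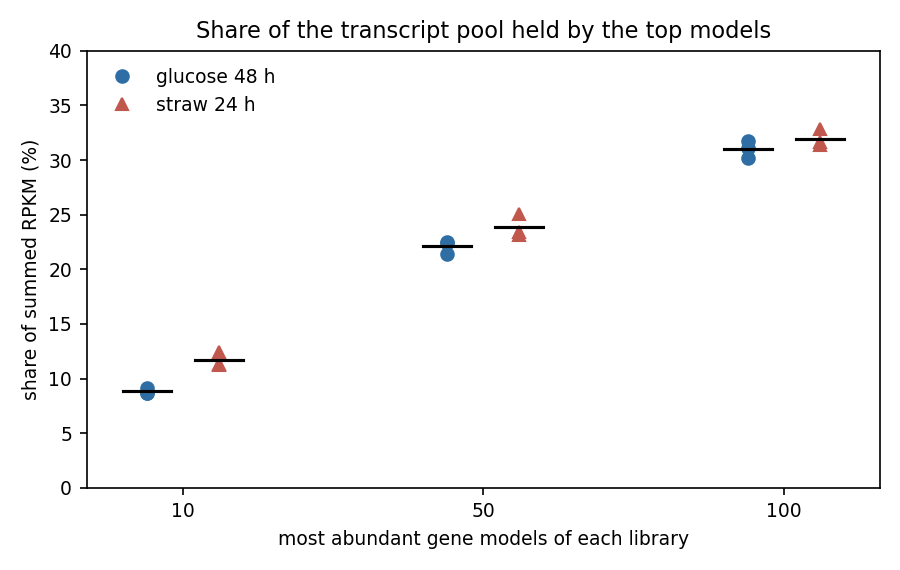
Share of the summed RPKM (%) held by the 10, 50 and 100 most abundant gene models of each library, with 1 point per library (circles, glucose; triangles, straw) and bars at the means. The conditions are apart for the top 10, at 8.69% to 9.14% against 11.2% to 12.4%, and overlap for the top 100.

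An annotation was given for 2113 of the 9126 models in the listings used here, 861 of them only as unknown or unique proteins, and 1631 of the 2113 were tested. Of those, 31.0% were higher and 28.0% lower, with a median log2 fold change of 0.06, so the annotated models were close to the whole genome in these respects. The groups below hold models from these listings only and none of the 65 tabulated genes. Their counts are read against the 30.6% higher and 28.2% lower among all genes tested. Where many members of a group failed the filter on low counts, those that passed only through 1 condition had to differ, and the counts and medians of such a group are a description of the members tested. Of the genes lowered most that carry a functional annotation, a selection mostly tied to mitochondria or respiration is described first. Others of that ranking are not described there. Among them are a hydroxysteroid dehydrogenase (67778), a GT31 glycosyltransferase (76151) and an aryl-alcohol dehydrogenase (54694), with log2 fold changes of -5.42, -4.77 and -3.98.

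Among the annotated genes lowered most were several of mitochondrial respiration. The gene for subunit c of the mitochondrial F1F0-ATP synthase (60847, scaffold 8, at 781219 to 781772), which forms the rotating ring through which protons pass, had 3899, 1847 and 2574 normalised RPKM in glucose and 111, 87.4 and 94.2 on straw, a log2 fold change of -4.83 (SE 0.26, edgeR adjusted p = 2.1e-11). The gene for alternative oxidase (57940, scaffold 4, at 115671 to 116759), which passes electrons from ubiquinol straight to oxygen and is not the alcohol oxidase named above, had 1955, 1593 and 2014 in glucose and 67.7, 61.0 and 70.6 on straw, a log2 fold change of -4.80 (SE 0.22, edgeR adjusted p = 2.2e-12). Their straw and glucose libraries were far apart.

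COX17, Erv1 and an NADH dehydrogenase were also among the annotated genes lowered most. COX17 (54676, scaffold 1), which in yeast takes part in the supply of copper to cytochrome c oxidase, went from 773, 808 and 701 to 55.5, 45.9 and 49.2 normalised RPKM, a log2 fold change of -3.91 (SE 0.19). The sulfhydryl oxidase Erv1 (60849, scaffold 8), which in yeast takes part in the oxidation of proteins imported into the mitochondrial intermembrane space, went from 752, 681 and 718 to 48.5, 54.9 and 41.0, a log2 fold change of -3.90 (SE 0.18). An NADH dehydrogenase (67588, scaffold 22), annotated as a ubiquinone-reducing enzyme, went from 259, 174 and 229 to 23.7, 17.6 and 13.3, a log2 fold change of -3.61 (SE 0.24). The glucose and straw libraries were far apart for all 3 genes.

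Cytochrome c peroxidase (49205, scaffold 12), which in yeast mitochondria removes hydrogen peroxide, fell from 136, 155 and 184 to 16.0, 13.1 and 13.7 normalised RPKM. A gene annotated only as malate dehydrogenase (62153, scaffold 10) fell from 495, 622 and 668 to 28.5, 23.8 and 26.6, a log2 fold change of -4.50 (SE 0.20). Every gene named in these 3 paragraphs also fell when the authors' library totals were used, by 2.65 on the log2 scale for cytochrome c peroxidase and by 4.04 for ATP synthase subunit c.

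**Figure D3:**
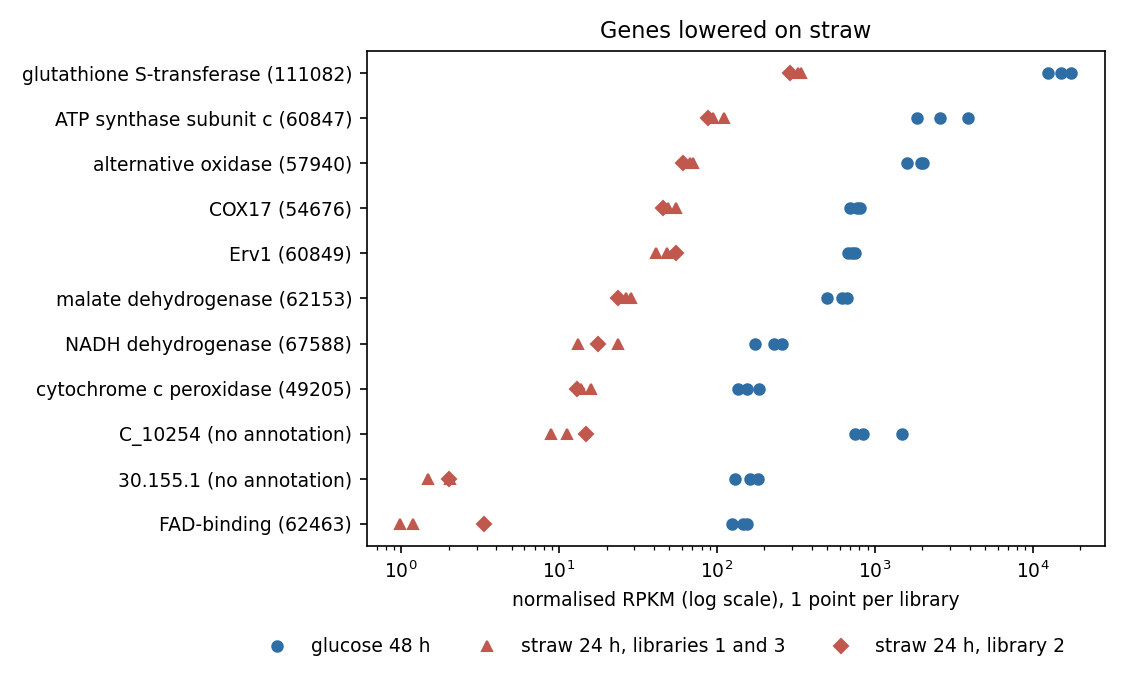
Normalised RPKM (log scale) of 11 genes picked from those lowered most on straw, with 1 point per library. Circles mark glucose, triangles straw libraries 1 and 3, and diamonds straw library 2. For all 11 genes the straw points lie left of every glucose point, for example 289 to 339 against 12464 to 17567 for the glutathione S-transferase.

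Nearly all tested genes of the respiratory chain and ATP synthase were lower. Of 17 genes with such an annotation 14 were tested, and 13 were lower (92.9%, against 28.2% of all genes) and 0 higher on straw, with a median log2 fold change of -1.78, where the median of all genes was 0.05. The 14th, a subunit of NADH-ubiquinone oxidoreductase of 18 kDa (55088), had a log2 fold change of -0.53 and an edgeR adjusted p of 0.0609. The genes above were named for their steep falls, and other members of the group are given here. The 51 kDa subunit of NADH dehydrogenase (65559) fell from a mean of 1490 to 496 normalised RPKM, a log2 fold change of -1.59, and 2 structural subunits of cytochrome c oxidase (80288 and 53318) had log2 fold changes of -2.00 and -1.68. Ubiquinone synthesis was represented by the genes for Coq4 (106150) and demethoxyubiquinone hydroxylase (63742), with log2 fold changes of -2.23 and -1.88. With the authors' library totals the respiratory chain, ribosomal proteins, chaperones and oxidant protection were the only groups of the 24 with a negative median. Summed over the respiratory group, the level was 8728 to 10915 normalised RPKM in the glucose libraries and 1633 to 1757 in the straw libraries. With the authors' library totals 10 of the 14 were still lower and 0 higher, and the median of the group minus that of all genes was -1.83 under both scalings.

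Genes for protein synthesis were lower relative to the genome, by less. Of 16 ribosomal protein genes tested, cytoplasmic and mitochondrial together, 12 were lower and 0 higher, against 28.2% and 30.6% of all genes, with a median log2 fold change of -0.85. A gene related to ribosomal protein L29 and similar to yeast mitochondrial MRPL4 (55752) fell from 127, 156 and 140 to 50.7, 60.3 and 49.5 normalised RPKM, a log2 fold change of -1.39 (SE 0.17), and MRPL3 (63269), also mitochondrial, from 85.7, 100 and 106 to 45.0, 32.7 and 39.6, a log2 fold change of -1.31 (SE 0.19). The genes that did not pass were those for L15 (62820), S30 (68107) and S26 (68909) of the cytoplasmic ribosome, with log2 fold changes of -0.21, -0.23 and -0.45, and for L53 (53350), of the mitochondrial one, with -0.32. The group median was close in size to the shift between the scalings: with the authors' library totals 2 of the 16 were lower and 1 higher, and the median was -0.07, with a difference from the median of all genes of -0.92 against -0.89 on the main scaling. Only 18 models carry such an annotation in the sources used here.

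Other parts of the same apparatus moved less evenly. Translation factors had 5 of 10 genes lower and 0 higher, the largest fall being that of a mitochondrial elongation factor G (62470), from 151, 151 and 256 to 50.5, 38.0 and 49.2 normalised RPKM. Of 16 genes for tRNA synthetases and tRNA modification 8 were lower and 2 higher. A tryptophanyl-tRNA synthetase (65741) was the exception in size, with 16.2, 14.7 and 4.70 normalised RPKM in glucose and 277, 345 and 264 on straw, a log2 fold change of 4.58 (SE 0.29). Ribosome assembly and rRNA processing, with 6 of 21 lower and 0 higher, had a median log2 fold change of -0.07, near that of all genes. For translation factors and tRNA genes the median turned positive, to 0.40 and 0.38, with the authors' library totals, below the 0.85 of all genes. For rRNA processing it became 0.72, and on the main scaling it was 0.04 among the models of the alphabetical listing alone.

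Genes of the proteasome and ubiquitin system were lower relative to the genome, and peptidase genes moved in both directions. Of 17 genes of the proteasome and ubiquitin system 10 were lower and 0 higher, with a median log2 fold change of -0.59, which with the authors' library totals became 0.21 with 2 lower and 6 higher. The largest fall was that of Rpt4 (63751), an ATPase of the regulatory particle that unfolds substrates, from 373, 273 and 289 to 99.8, 86.4 and 98.0 normalised RPKM, a log2 fold change of -1.72 (SE 0.21). The regulatory subunits Rpn5 (68304), Rpn6 (54454) and Rpn10 (65591) followed with log2 fold changes of -1.24, -1.10 and -1.09. Of 33 peptidase genes 23 passed the filter, and 12 of these were higher (52.2%) and 4 lower (17.4%), against 30.6% and 28.2% of all genes. A peptidase of subfamily C1B (65735) rose from 31.5, 29.4 and 20.9 to 421, 452 and 412 normalised RPKM, a log2 fold change of 3.96 (SE 0.20), and the CAAX-type protease Ste24p (63398), which in yeast matures the a-factor pheromone, fell from 350, 460 and 452 to 166, 126 and 149.

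Genes for protection from oxidants split. Of 10 tested, 6 were lower and 2 higher, with a median log2 fold change of -1.23. The glutathione S-transferase and the cytochrome c peroxidase above were lowered most, and the manganese superoxide dismutase (66345), a mitochondrial enzyme that turns superoxide into hydrogen peroxide, fell from a mean of 699 to 155 normalised RPKM, a log2 fold change of -2.18 (SE 0.20). The copper and zinc superoxide dismutase SOD1 (123029), which does the same mainly in the cytosol, rose from 92.5, 109 and 86.0 to 1056, 1029 and 1049, a log2 fold change of 3.44 (SE 0.21, edgeR adjusted p = 7.8e-11). A catalase (67538) rose from 6.40, 10.6 and 9.41 to 172, 81.1 and 172, with straw library 2 below the other straw libraries and above every glucose library. The named genes kept these directions with the authors' library totals, under which 5 of the 10 were lower and 3 higher.

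Of 6 heat shock proteins and chaperones, 4 were lower and 0 higher, or 3 and 1 with the authors' library totals. They included the co-chaperone Hsc20 (56831), which in yeast assists iron-sulfur cluster assembly in mitochondria, at 13.0, 12.9 and 14.4 in glucose and 2.64, 4.69 and 2.73 on straw. Metabolic genes showed no single direction. Amino acid synthesis had 9 of 24 genes lower and 7 higher, or 6 and 10 with the authors' library totals, with phosphoadenosine phosphosulfate reductase (65410), a step of sulfate assimilation, falling from 119, 123 and 159 to 14.4, 14.6 and 15.0 and a thiamine pyrophosphate enzyme of the IlvB type (67639) rising from 16.8, 17.3 and 11.6 to 137, 202 and 138 normalised RPKM. Fatty acid and acyl-CoA metabolism had 7 of 15 higher and 4 lower. An acyl-CoA synthetase (54667), which activates fatty acids, rose from 1.34, 0.781 and 1.31 to 151, 195 and 163, a log2 fold change of 7.16 (SE 0.27).

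Transporters for sugars and other solutes moved in both directions and by large amounts. Among 70 models annotated as major facilitator, sugar or other secondary transporters, 45 passed the filter, 29 were higher and 13 lower, and the median log2 fold change of those tested was 2.02. A transporter that passed the filter only through its straw libraries had to differ, so the count rests in part on that choice. The transporter raised most (65915, scaffold 17) had no read in any glucose library and 39.0, 36.6 and 41.3 normalised RPKM on straw, and set against 3 reads per glucose library, a floor used for every such bound, it was at least 28.1-fold higher. Another (53903, scaffold 1), also without a read in glucose, was at least 19.1-fold higher. Such bounds and intervals cover counting error only. A transporter annotated as a maltose permease (65191) had 1 read in the 3 glucose libraries together and 77.0, 93.9 and 79.4 normalised RPKM on straw, a ratio of 602 with a counting interval of 108 to 23813.

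Of the lowered transporters, those with the steepest falls are given here. A permease (69164) fell from 85.7, 75.8 and 63.0 to 7.64, 8.68 and 11.1 normalised RPKM, a log2 fold change of -3.02 (SE 0.22), and a monocarboxylate transporter (55630) from 21.5, 14.0 and 19.1 to 2.26, 2.59 and 1.17. Summed over all 70 models, which include no tabulated gene, the level was 952 to 1032 normalised RPKM in glucose and 1593 to 1805 on straw. The tabulated permease among the 10 most abundant models on straw alone had 7970, 9266 and 7947 there. Amino acid permeases were divided, with 5 of 11 higher and 5 lower. The amino acid transporter IndA1 (51110) rose from 1.87, 2.19 and 2.10 to 214, 187 and 213, and another (57015) fell from 16.1, 21.1 and 17.1 to 1.32, 2.01 and 0.820. ABC transporters had 6 of 14 higher and 4 lower.

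Zinc cluster regulators of the Zn2Cys6 type, the largest class of fungal transcription factors and one that includes some known regulators of sugar use, were more often raised. Of 41 tested out of 44, 26 were higher and 4 lower, against 30.6% and 28.2% of all genes, with a median log2 fold change of 1.04. One (65854, scaffold 17) had no read in glucose and 13.7, 14.6 and 13.3 normalised RPKM on straw, at least 15.4-fold higher. A second (54502) rose from 2.05, 1.59 and 0.891 to 57.3, 56.3 and 51.4, a log2 fold change of 5.11 (SE 0.30), and another (66047) fell from 170, 156 and 155 to 45.0, 37.6 and 42.5, a log2 fold change of -1.94 (SE 0.16). Of 17 other transcriptional regulators 9 were higher and 2 lower, and both of the lower ones (56772 and 121584), with log2 fold changes of -0.71 and -0.40, were positive with the authors' library totals. The Zn2Cys6 median lay 0.99 above that of all genes under both scalings. Among the models of the alphabetical listing alone, without those listed for antisense reads, 17 of 30 were higher and the median was 0.68.

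Genes tied to secondary metabolism and signalling were fewer. Of 22 cytochrome P450 genes only 12 passed the filter, and 7 of these were higher (58.3%, against 30.6% of all genes) and 2 lower, with CYP2 subfamily member 67964 rising from 2.27, 3.10 and 1.49 to 92.2, 75.3 and 81.9. Of 16 short-chain dehydrogenases/reductases tested, out of 29, 8 were higher and 3 lower. Receptors of the GPCR type had 4 of 10 higher, among them one that contains an RGS domain (63981) with 7.46, 19.0 and 9.31 normalised RPKM in glucose and 101, 124 and 101 on straw, and 2 lower, both of the PTH11 class (62462 and 55561). Of 20 protein kinases 6 were higher and 6 lower. The 4 polyketide and nonribosomal peptide synthase genes tested had 2 higher and 1 lower.

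DNA replication, repair and chromosome segregation had 6 of 36 genes higher (16.7%) and 5 lower (13.9%), against 30.6% and 28.2% of all genes, with a median log2 fold change of 0.05. The secretory pathway had 8 of 28 lower and 2 higher, with a median of -0.19 that became 0.62 with the authors' library totals. One of its members stood apart, a gene annotated as the alpha subunit of glucosidase II (60085, scaffold 7). It had no read in glucose and 20.3, 23.7 and 17.2 normalised RPKM on straw, at least 25.7-fold higher. Glucosidase II trims N-glycans in the endoplasmic reticulum. The gene was placed in this group by its annotation alone, and whether it has that function was not tested. Enzymes of chitin and beta-1,3-glucan had 4 of 13 higher and 4 lower, and a GH18 chitinase without a signal peptide (65162, scaffold 15) was the highest riser, with no read in glucose and 45.0, 61.1 and 46.4 on straw, at least 26.1-fold higher.

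**Figure D4:**
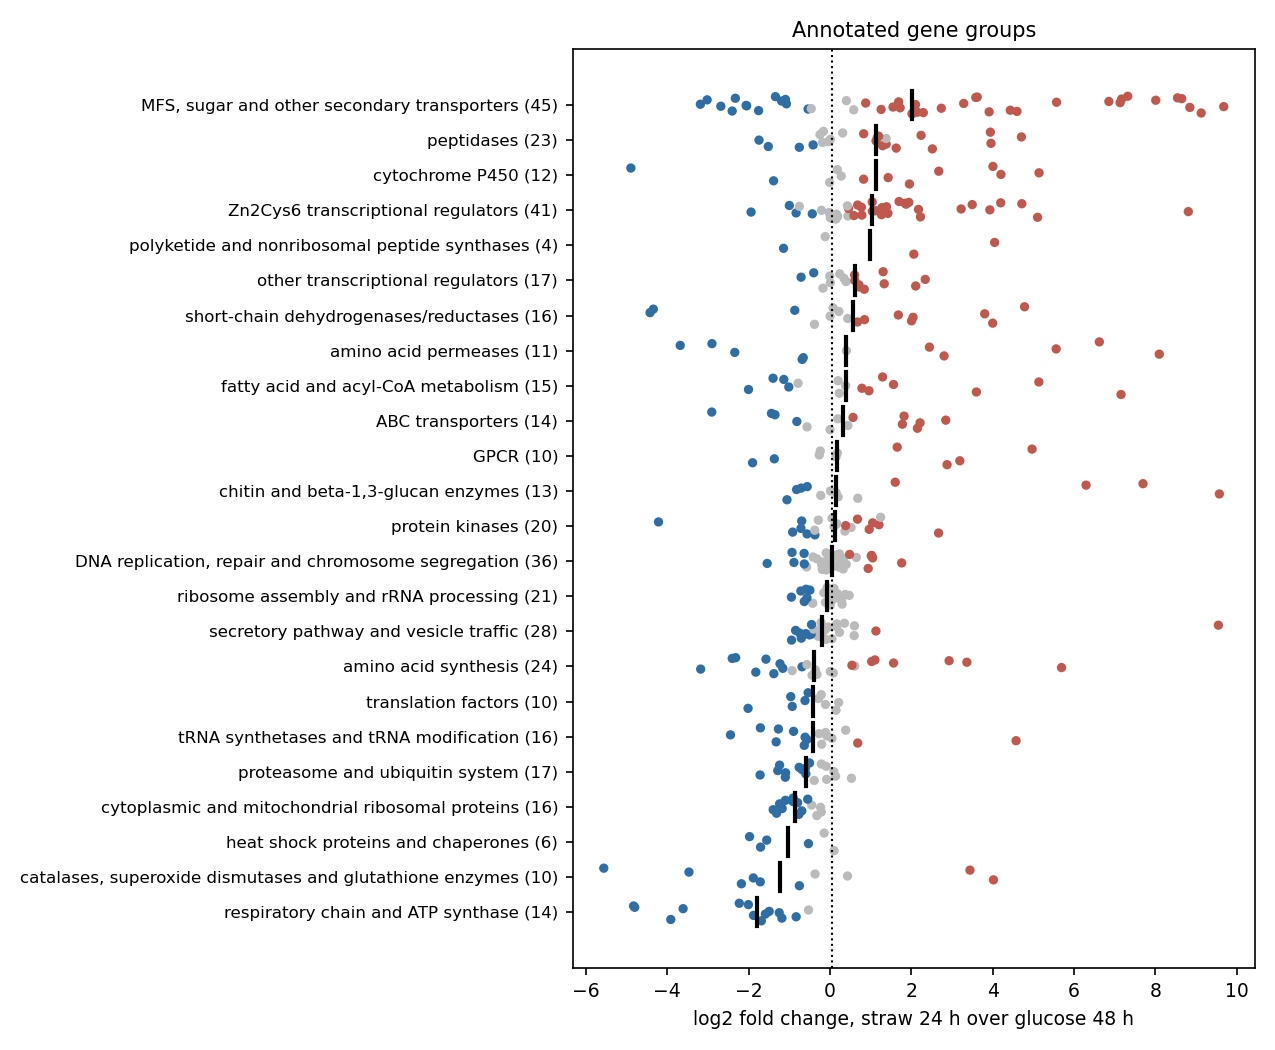
Log2 fold change of 24 h straw over 48 h glucose for each tested gene of 24 annotated groups (number tested in brackets), ordered by the median of the group (black bar). Blue and red mark genes called lower and higher, grey those not called, and the dotted line is the median of all 7211 genes, 0.05; respiratory chain genes have the lowest median (-1.78) and secondary transporters, of which 45 of 70 passed the filter, a median of 2.02.

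As among all genes tested, most of the largest falls and rises were in models without an annotation in the sources used here. The model lowered most, estExt_GeneWisePlus.C_10254 (scaffold 1), went from 845, 1497 and 752 to 8.91, 14.8 and 11.2 normalised RPKM, a log2 fold change of -6.47 (SE 0.30, edgeR adjusted p = 2.3e-12). Among genes with a mean of at least 20 counts it was followed by e_gw1.30.155.1 (scaffold 30), with 163, 183 and 130 in glucose and 1.48, 2.00 and 2.04 on straw, a log2 fold change of -6.35 (SE 0.28). Next came a protein with an FAD-binding domain (62463, scaffold 10), with 125, 146 and 155 and 1.19, 3.33 and 0.986, a log2 fold change of -6.27 (SE 0.31). The last 2 had 3 to 11 reads in each straw library, and estExt_GeneWisePlus.C_10254 had 33, 54 and 50. Of the 411 genes lowered at least 4-fold, 98 are annotated and 69 of those with a function. Of the 785 genes raised at least 4-fold 189 are annotated, and of all 7211 genes tested 1631, a similar share.

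Among the raised genes outside the tables of the study, the 5 with the largest fitted change have no annotation here and had no read in any glucose library. The first, estExt_fgenesh5_pg.C_250133 (scaffold 25), had 76.1, 173 and 78.6 normalised RPKM on straw, at least 66.5-fold higher, and straw library 2 was the highest. The second, estExt_fgenesh5_pg.C_190084 (scaffold 19), had 112, 168 and 90.3, at least 49.8-fold higher. A GH30 glycoside hydrolase (69276, scaffold 28), a family that includes xylanases, had 1 read in glucose and 136, 141 and 133 normalised RPKM on straw, a ratio of 849 with a counting interval of 152 to 33552. An aquaglyceroporin (58584, scaffold 5), a channel for water and glycerol, and a catechol dioxygenase (62165, scaffold 10), which opens aromatic rings, had no read in glucose and were at least 19.7-fold and at least 14.0-fold higher.

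In all, 239 genes called higher had at most 3 reads in every glucose library, and 57 of them had 0 reads in all 3. By the same limit 13 genes called lower were near 0 on straw, and none of these had 0 reads in all 3 straw libraries. The straw libraries held more reads, which makes an absence harder to see there, so these counts cannot be compared directly.

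Every scaffold with at least 30 genes tested held genes called in both directions. Of 72 scaffolds, 36 had at least 30 genes tested, and on these the share of genes called higher ran from 19.5% to 45.5% and the share called lower from 19.3% to 41.8%, against 30.6% and 28.2% of all genes. Smaller scaffolds reached larger shares higher, with 18 of 29 genes on scaffold 35 (62.1%) and 12 of 17 on scaffold 42 (70.6%). Among the 36, scaffold 22 had the largest share higher, with 46 of 101 genes (45.5%), and 29 lower. None of its genes is in the tables of the study. Its highest riser with an annotation was a permease (67541), with 1 read in glucose and 20.1, 31.4 and 23.4 normalised RPKM on straw. Scaffold 33 came next with 15 of 35 higher (42.9%), followed by scaffold 6 with 111 of 281 (39.5%). The first gene of scaffold 33, fgenesh5_pg.C_scaffold_33000038, had no read in glucose and 23.8, 23.8 and 20.2 on straw. Only 101 of the 153 models of scaffold 22 and 35 of the 58 of scaffold 33 were tested, against 7211 of 9126 in the genome. Models that passed the filter only through 1 condition had to differ, so these shares and their order rest in part on the filter.

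Scaffold 29 had the largest share lower, with 33 of 79 genes (41.8%), and 19 of these (24.1% of its genes) fell at least 4-fold, against 5.7% of all genes. The same scaffold carries 5 of the genes that the study tabulates, *cbh1* and *xyn4* among them, and without those 5, 14 of its other 74 genes (18.9%) were higher. The genes lowered most there were one for a protein with an FAD-binding domain (69650), at 91.5, 106 and 60.3 in glucose and 2.62, 3.99 and 2.17 on straw, estExt_GeneWisePlus.C_290128, with a log2 fold change of -4.80, and fgenesh5_pg.C_scaffold_29000088, with -4.60. Scaffold 24 followed with 34 of 94 genes lower (36.2%), led by the glutathione S-transferase described above, a short-chain dehydrogenase/reductase (68279) at -4.42 and an unusual protein kinase (68371) at -4.21 on the log2 scale. With the authors' library totals scaffold 29 still had the largest share lower, at 29.1%, but the largest share higher passed to scaffold 31 (68.2%), with scaffold 22 at 60.4%. With DESeq2 it passed to scaffold 33 (42.9%), with scaffold 22 at 41.6%. The shares describe the genes that passed the filter, on scaffold 29 79 of 114 models, and differences between scaffolds were not tested.

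**Figure D5:**
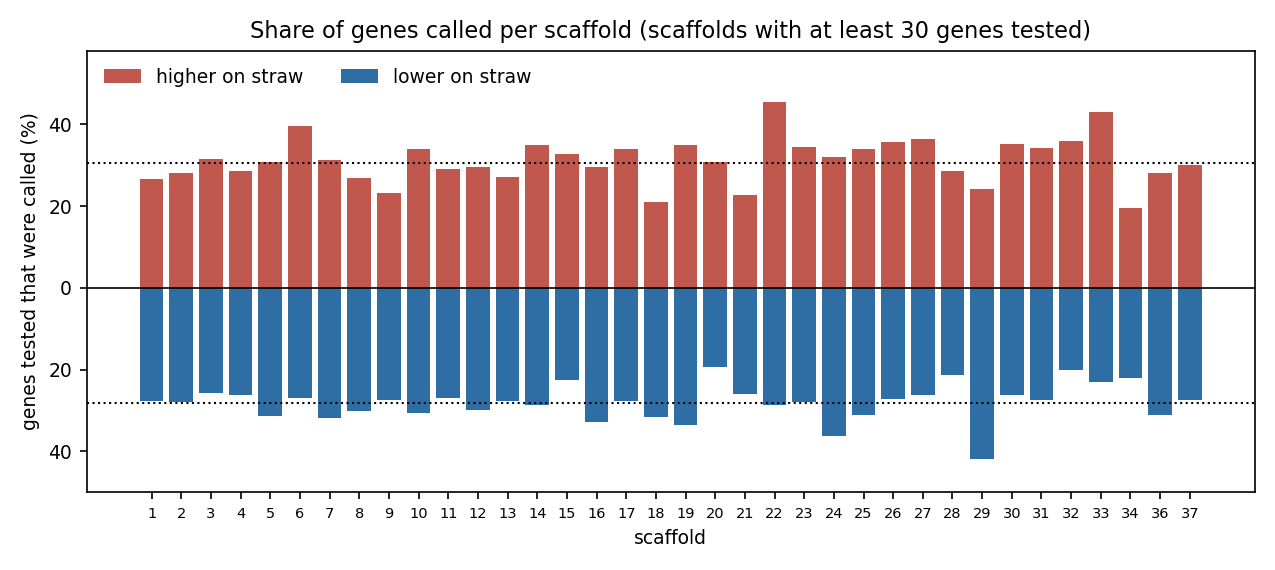
Share of the genes tested (%) called higher (red, upwards) and lower (blue, downwards) on straw for the 36 scaffolds with at least 30 genes tested. Dotted lines mark the 30.6% and 28.2% of all genes; scaffolds 22 and 33 stand highest upwards, at 45.5% and 42.9%, and scaffold 29 reaches lowest, at 41.8%.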

How the data were processed

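Sense-strand transcript levels were compared between 3 libraries of 48 h glucose and 3 of 24 h straw, with the 2 libraries taken 5 h after glucose was added included in the fit for its estimate of the spread. SOLiD reads of 50 bp had been aligned by the authors to JGI assembly version 2 with BioScope and, after removal of rRNA reads, the unique ones counted per gene model with HTSeq. The deposited counts are not normalised. The deposited RPKM are these counts over transcript length and a library total chosen by the authors. Here that total was calculated back from the values.

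Counts were tested with edgeR 4.0.16 in R 4.3.3: filterByExpr, TMM factors (0.893 to 1.06), 1 model of condition over 8 libraries, glmQLFit and glmQLFTest, with Benjamini-Hochberg adjusted p below 0.05 over all genes tested. The standard error is the log2 fold change divided by the square root of F. In simulated data with 200 genes changed 4-fold, 197 were recovered with 14 wrong calls among 7041 genes. Far fewer genes were changed there than were called in the data, equally in both directions and none of low counts. It therefore tests neither the choice of scaling nor genes near 0. Shares were compared by two-sided exact permutation in scipy 1.17.1, with Python 3.11.15, pandas 2.3.3, numpy 2.4.6 and matplotlib 3.10.9. Folds against a condition with 0 reads use 3 reads per library, and ratios against 1 to 3 reads have exact 95% binomial intervals.

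Annotations and transcript IDs come from the available part of the study's alphabetical gene listing (1577 models) and its listing of 630 models with antisense reads, together 2113 models, and groups were formed by words in the annotation. Coordinates are RefSeq's for assembly v2.0, where 2091 of these IDs were found, and scaffolds are those of the deposited files. The 65 tabulated genes were matched to models by their mean RPKM. Named genes are the 20 lowered most, the 20 lowered most with a function, the 10 raised most outside the tables and the 10 of these with a function (past the threshold, mean count 20 or more, no overlap), the 10 most abundant per condition, up to 2 per direction and group, and up to 3 from each of the 4 scaffolds with the largest shares. Not all of these are described in the text. Other genes named were chosen after their values were seen. The members and lists were chosen with earlier results of these data known. Alternatives were DESeq2 1.42.0, the authors' library totals, no filter, 6 libraries only, a replicate block, an adjusted p below 0.001, Fisher's exact test on pooled counts, counts in place of RPKM, other limits and leaving out each library.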

Additional observations from a re-analysis of the deposited data

How the results depend on the processing

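With the library totals behind the authors' RPKM, 4294 genes were higher and 753 lower, and 1283 and 177 changed at least 4-fold. An adjusted p below 0.001 left 1374 higher and 1301 lower genes. Fisher's exact test on pooled counts called 2661 and 2241, and 4182 of its 4902 calls were shared with the replicate test. Leaving out each library in turn gave 1936 to 2112 higher and 1772 to 1933 lower genes, 754 to 814 and 402 to 418 of them at least 4-fold. Among the named genes, 4 with a negative value turned positive with the authors' totals, at log2 fold changes of 0.14 (estExt_fgenesh5_pg.C_270120), 0.082 (estExt_GeneWisePlus.C_140337), 0.093 (e_gw1.3.301.1) and 0.41 (estExt_fgenesh5_pg.C_80128). Genes near 0 in glucose and higher on straw numbered 119 with a limit of 1 read per library and 585 with a limit of 10, and genes near 0 on straw and lower numbered 3 and 67. The difference between the conditions in the share of the top 10 models was 2.81 percentage points over RPKM and 7.51 over counts, and for the top 50 it was 1.79 and 7.11, for the top 100 0.915 and 5.52. Without one of the libraries it was 2.43 to 3.03, 1.22 to 2.14 and 0.457 to 1.29 points, lowest without straw library 2 in each case, and the number of models holding 50% differed by 61.7, by 55.2 to 71.5 without one library and by 7.67 over counts. The replicate numbers did not pair the libraries, since deviations of same-numbered glucose and straw libraries correlated at -0.03 to 0.01. With the replicate block, 2181 genes were higher and 2018 lower. Depth limits the genes near 0, since glucose libraries held fewer reads than straw libraries. DESeq2 (2081 higher and 2007 lower), no filter on low counts (2368 and 2120) and the 6 libraries alone (2351 and 2123) moved the counts by less than 1.5 times.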
